A study of Mus musculus with 6 samples.

Results

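The heat shock proteins, the DNAJ proteins and the CCT subunits are the main protein-folding chaperones of the cell. They were followed here in mouse embryonic stem (ES) cells as the 82 gene symbols, of 23420 in the deposited count table, whose names begin with Hspa, Hspb, Dnaja, Dnajb or Dnajc and a digit, with Hsp90, Hspd1, Hspe1 or Hsph1, or with Cct2 to Cct8, together with Tcp1. The ES cells had been stably transduced with lentivirus, 1 group receiving KBP(KK/RR), a mutant that the labels call stable (replicates 4, 5 and 6), and the other wild-type KBP (replicates 1, 2 and 3). Both groups thus carried a KBP virus and were kept in self-renewing medium, and cells with no virus were not part of the design. KBP, the Kif1-binding protein, binds kinesin motors. The viral promoter, the strain of the cells and whether each line was 1 clone were details not given in the sources used here. Nothing in the labels says that the 3 libraries of a group came from separate cultures, so p-values measure only the spread between these libraries, which may be technical.

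HSP70 proteins bind exposed hydrophobic stretches of unfolded proteins in cycles of ATP binding and hydrolysis. DNAJ proteins deliver clients to HSP70 and start the hydrolysis, and HSP110 proteins and other exchange factors release the nucleotide. HSP90 finishes the folding of kinases, receptors and other clients with the help of cochaperones, small HSPs hold unfolded proteins without ATP, and the barrel-shaped chaperonins, CCT in the cytosol and Hspd1 with its lid Hspe1 in mitochondria, enclose the chain while it folds. CCT is known above all for folding actin and tubulin, the subunit of the microtubules on which kinesins move. ES cells are known for high levels of several of these proteins.

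Total counts ran from 24300832 to 29863560 in the KBP(KK/RR) libraries and from 24131743 to 32160411 in the wild-type KBP libraries. The table's KBP gene, 2510003E04Rik, measured 56.3, 59.6 and 53.9 CPM (counts scaled to a common library size, per 1e6) in KBP(KK/RR) libraries, against 48.3, 47.0 and 49.6 CPM in wild-type KBP libraries. It was called higher (log2 fold change 0.23, edgeR adjusted p = 0.0133), where 1.05% of all genes were. Omission of KBP(KK/RR) replicate 5 or wild-type KBP replicate 2 ended that call. The count of this gene does not separate endogenous from viral transcripts. The 6 ES cell markers summed to 4566 to 4760.3 CPM in KBP(KK/RR) libraries and to 4653 to 4759.7 CPM in wild-type KBP libraries, and 0 were called. Nanog was higher in all KBP(KK/RR) libraries (log2 fold change 0.10, edgeR adjusted p = 0.191) and Esrrb lower in all (-0.09, edgeR adjusted p = 0.182). Groups overlapped in Pou5f1, Sox2, Zfp42 and Tdgf1. The markers of fibroblasts or feeders summed to 19.6 to 20.8 CPM in KBP(KK/RR) libraries against 19.3 to 22.1 CPM in wild-type KBP libraries, those of primitive endoderm to 15.6 to 18.5 against 18.1 to 21.3 CPM, those of trophectoderm to 13.8 to 16.7 against 12.6 to 15.3 CPM and those of neural cells to 207 to 214 against 211 to 216 CPM. No marker was at 0 in all libraries. Of 6 primitive endoderm markers 1 fell, Pdgfra (log2 fold change -0.68, edgeR adjusted p = 0.0342), and of 6 neural markers 1 fell, Ncam1 (-0.22, edgeR adjusted p = 0.0185), where 2.07% of all genes did. The primitive endoderm markers Gata4, Gata6, Dab2 and Sox17 had overlapping groups, with log2 fold changes of -0.19, -0.19, -0.09 and 0.07. Sox7, a further primitive endoderm marker, was lower in all KBP(KK/RR) libraries without passing the test (-0.46, edgeR adjusted p = 0.0949). The neural marker Map2 was higher in all KBP(KK/RR) libraries, also without passing it (0.24, edgeR adjusted p = 0.130). Of the remaining neural markers, Pax6, Tubb3 and Nes had log2 fold changes of 0.12, 0.06 and 0.04, and Sox1 had one of -0.18. Any part of other cell types in the results that follow was not tested. In such bulk RNA a smaller share of 1 cell type and less of an RNA per cell cannot be told apart.

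The chaperone genes took up 3.09% to 3.19% of all counts in KBP(KK/RR) libraries and 2.98% to 3.07% in wild-type KBP libraries. Over all libraries 52.1% of these counts came from 3 genes, the constitutive cytosolic Hspa8 (20.0%), Hsp90ab1 (18.9%) and Hsp90aa1 (13.2%). Levels were compared between genes as CPM per kb of the longest annotated transcript, a choice that understates a gene expressed as a shorter form. Per length, Hsp90ab1 measured 2364 CPM per kb in KBP(KK/RR) cells and 2279 CPM per kb in wild-type KBP cells. Hspa8 measured 1979 CPM per kb in KBP(KK/RR) cells and 1924 CPM per kb in wild-type KBP cells. Low in the HSP70 family stood Hspa1a and Hspa1b, the neighbouring genes on chromosome 17 that heat shock induces, and Hspa12b and Hspa1l were below Hspa1b per length as well. Hspa1b measured 1.2 CPM per kb in KBP(KK/RR) cells and 1.18 CPM per kb in wild-type KBP cells, and Hspa1a 0.443 CPM per kb in KBP(KK/RR) cells and 0.378 CPM per kb in wild-type KBP cells. The level of Hspa8 per length was thus 1648 times that of Hspa1b in KBP(KK/RR) cells and 1630 times in wild-type KBP cells. Hspa1a and Hspa1b are near-identical copies whose shared reads the counting could divide or leave out, so their single values are uncertain. Processed copies of Hspa8, Hsp90aa1, Hspd1 and Hspe1 elsewhere in the genome could likewise take or lose reads.

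**Figure D1:**
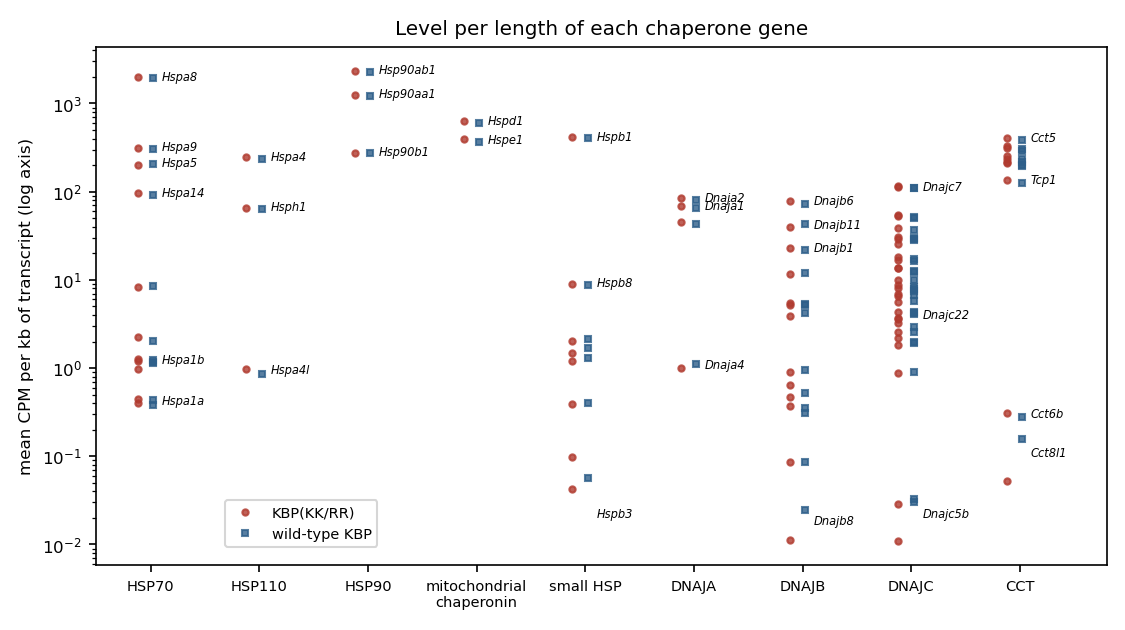
Mean level of each of the 82 chaperone genes by family in CPM per kb of transcript on a log axis, KBP(KK/RR) as circles left of wild-type KBP as squares (means of 3 libraries, a mean of 0 is not drawn). Hsp90ab1 and Hspa8 lead at 2364 and 1979 CPM per kb in KBP(KK/RR) cells, and the heat-inducible Hspa1a and Hspa1b lie near or below 1.2 CPM per kb.

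Heat shock factors bind arrays of the unit GAA in alternating direction, the heat shock element, and the response to unfolded protein in the endoplasmic reticulum (ER) acts through the ER stress response element. Of the 82 genes, 67 had a RefSeq start region on GRCm38.p6, taken as 250 bases before to 50 bases after the start. Genes without one, among them Hspa8, Hsp90aa1, Hsp90ab1, Hspa9 and Cct4, were not searched, so their elements are unknown here. In the 86 windows of these 67 genes, on either strand, GAANNTTC was found in 20.9% (7.86% of all 32851 windows) and TTCNNGAA in 11.6% (8.52% of all). A 3-unit run, GAA, TTC and GAA with NN between neighbours, holds one of each pair. It was found in 6.98% (0.603% of all) and belonged to Hspd1, Hspe1, Hsph1 and Dnajb6. Counted by gene the share was 5.97%, against 0.662% of all genes. The 2 windows of Hsph1 overlap and hold the same run, as do the 2 of Dnajb6, and Hspd1 and Hspe1 share theirs. The ER element, CCAAT and CCACG with 9 bases of any kind between them, was found in 3.49% (0.119% of all) and belonged to Hspa5, Hsp90b1 and Dnajc3. A match is a description of letters and not a site known to be bound. The 6 windows that follow show where the letters of these elements lie in genes described in the following paragraphs. Each is printed on the strand of its gene with the matched letters in capitals. They are Hspa1b at chr17:34959189-34959488 (minus strand), Hspd1 at chr1:55087883-55088182 (minus), Dnajb6 at chr5:29735648-29735947 (plus), Cct2 at chr10:117063326-117063625 (minus), Hspa5 at chr2:34771840-34772139 (plus) and Hsp90b1 at chr10:86705395-86705694 (minus).
Hspa1b: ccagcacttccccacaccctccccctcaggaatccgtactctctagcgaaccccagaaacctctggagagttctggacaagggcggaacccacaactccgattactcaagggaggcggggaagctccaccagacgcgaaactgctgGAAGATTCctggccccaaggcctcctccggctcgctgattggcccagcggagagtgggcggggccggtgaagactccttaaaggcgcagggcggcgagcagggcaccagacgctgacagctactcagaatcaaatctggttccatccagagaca
Hspd1: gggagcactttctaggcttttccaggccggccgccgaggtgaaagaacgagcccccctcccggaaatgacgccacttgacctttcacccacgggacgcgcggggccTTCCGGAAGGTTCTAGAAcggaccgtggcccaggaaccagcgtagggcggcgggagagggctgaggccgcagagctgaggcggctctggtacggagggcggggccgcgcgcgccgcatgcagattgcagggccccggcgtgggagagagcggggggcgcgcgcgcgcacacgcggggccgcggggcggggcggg
Dnajb6: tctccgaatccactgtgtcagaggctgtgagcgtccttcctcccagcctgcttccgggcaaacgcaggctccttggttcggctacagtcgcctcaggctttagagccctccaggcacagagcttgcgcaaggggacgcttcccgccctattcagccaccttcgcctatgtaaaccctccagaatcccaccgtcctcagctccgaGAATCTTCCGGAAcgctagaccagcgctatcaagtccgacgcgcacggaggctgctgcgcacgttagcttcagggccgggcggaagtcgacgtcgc
Cct2: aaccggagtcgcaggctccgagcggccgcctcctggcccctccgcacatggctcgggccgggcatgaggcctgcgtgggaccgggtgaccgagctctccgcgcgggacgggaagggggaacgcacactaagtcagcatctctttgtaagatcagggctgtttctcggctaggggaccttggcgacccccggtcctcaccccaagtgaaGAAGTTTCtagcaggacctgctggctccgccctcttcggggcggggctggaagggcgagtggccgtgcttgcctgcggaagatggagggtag
Hspa5: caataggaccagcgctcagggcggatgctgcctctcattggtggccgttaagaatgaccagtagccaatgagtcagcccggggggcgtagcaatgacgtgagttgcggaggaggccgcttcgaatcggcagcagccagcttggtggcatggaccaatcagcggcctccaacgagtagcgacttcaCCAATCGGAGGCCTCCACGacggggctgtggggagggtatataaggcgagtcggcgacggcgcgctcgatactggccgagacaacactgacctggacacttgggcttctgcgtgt
Hsp90b1: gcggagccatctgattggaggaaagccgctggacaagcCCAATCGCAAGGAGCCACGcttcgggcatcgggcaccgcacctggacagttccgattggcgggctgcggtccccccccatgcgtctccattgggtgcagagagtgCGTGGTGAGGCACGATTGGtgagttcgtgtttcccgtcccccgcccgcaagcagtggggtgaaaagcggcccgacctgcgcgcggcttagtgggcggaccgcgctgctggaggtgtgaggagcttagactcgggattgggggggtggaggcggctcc
Positions of the leftmost matched letter were counted from the RefSeq start that lies within the window shown. They were -104 in Hspa1b, -144 in Hspd1, -46 in Dnajb6, -42 in Cct2 and -65 in Hspa5. The pair of elements in Hsp90b1 stood at -212 and -107. The Hspd1 window covers the start of Hspe1 as well, which is read in the other direction from the same region, so the capitals there stand before the RefSeq start of Hspe1 and before 1 of the 2 RefSeq starts of Hspd1. From the other Hspd1 start, at 55088243, they lie inside the gene. Cct2 has 2 start regions as well, and only the 1 shown holds a match. The annotated span of Cct2 reaches 117063852, beyond the window shown, so that match lies inside the span.

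No chaperone gene reached an adjusted p under 0.05 between KBP(KK/RR) and wild-type KBP cells. Of the 82 genes, 74 passed the filter on low counts, and edgeR called 0 of the 74 higher and 0 lower, where the background over all 14340 genes tested was 3.12% called, 1.05% higher and 2.07% lower. At an unadjusted p under 0.05, 14 chaperone genes were higher (18.9%, background 8.32%) and 3 were lower (4.05%, background 10.3%), with a background of 18.6% in either direction. The 14 became 6 without KBP(KK/RR) replicate 6, 9 without wild-type KBP replicate 2 and 21 without KBP(KK/RR) replicate 5. The background of unadjusted p for these omissions is not given here. DESeq2, whose own filter left 53 of the chaperone genes with an adjusted p, called 0 (background 0.803% higher and 2.68% lower), and limma-voom called 0 of 74 (background 0.976% higher and 1.94% lower). The 3 KBP(KK/RR) libraries lay above all 3 wild-type KBP libraries in 16 genes (21.6%, background 11.8%) and below them in 6 (8.11%, background 10.5%), with a background of 22.4% for either order. The log2 fold change was positive in 51 of 74 chaperone genes and in 7058 of all 14340 genes. The median was 0.05 over the chaperone genes and -0.00 over all genes.

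The 95% interval of the fold change lay within 1.2-fold of no change in 48 of the 74 chaperone genes (64.9%, against 56.0% of all genes tested). It lay within 1.5-fold in 69 of the 74, against 11910 of all 14340. The widest upper bound was that of Dnajb13, at 2.21-fold. The 5 genes past 1.5-fold, Cct6b, Dnajb3, Dnajb13, Hspa1a and Hspb2, had 94 to 206 counts over the 6 libraries, and low counts limit them. Among the 33 chaperone genes with a mean of at least 100 CPM, a bound set after the values were seen, 29 had a positive log2 fold change, against 1320 of the 2437 genes at that level. The medians were 0.08 for these chaperone genes and 0.01 for all genes at that level. After correction for a trend on transcript length and GC, the first of these medians was 0.04.

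**Figure D2:**
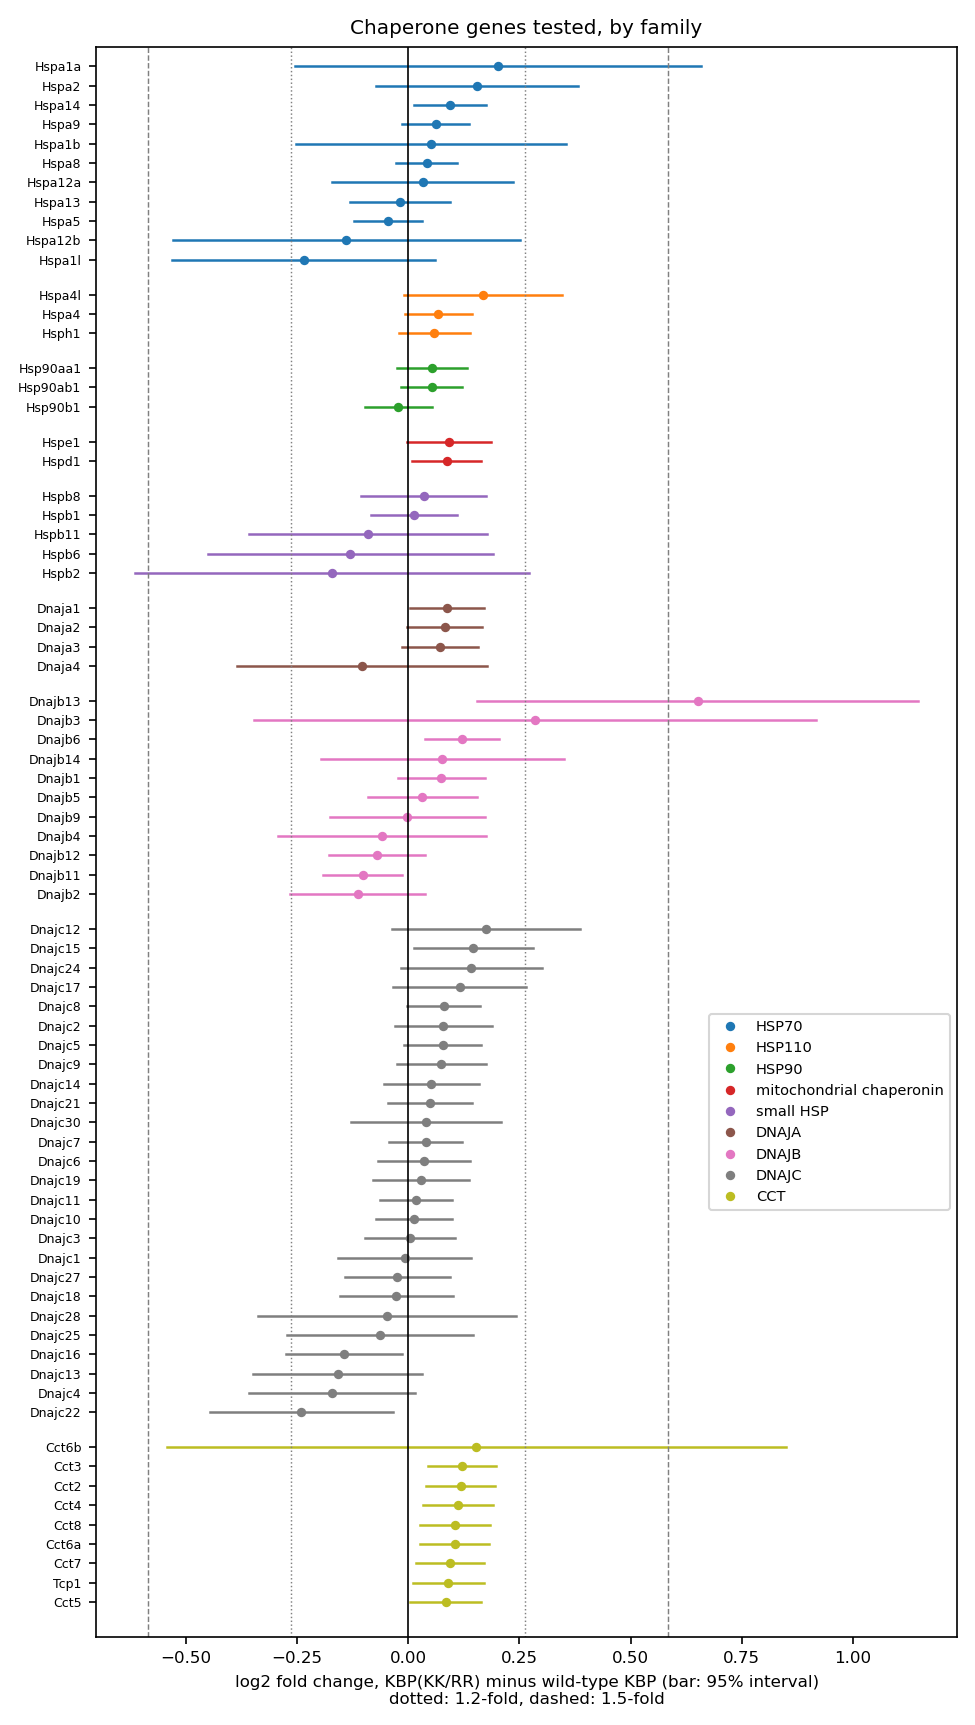
Log2 fold change (KBP(KK/RR) minus wild-type KBP, horizontal axis) with its 95% interval for each of the 74 chaperone genes tested, ordered by family, with lines at 1.2-fold and 1.5-fold. All intervals but 5 stay within 1.5-fold, and the CCT genes apart from Cct6b lie close together at 0.08 to 0.12.

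In the HSP70 family, 0 of 11 genes were called, and 7 had a positive log2 fold change (median 0.04). Hspa8 measured 6326, 6155 and 6269 CPM in KBP(KK/RR) libraries, against 6075, 5932 and 6219 CPM in wild-type KBP libraries. The groups overlapped, and the log2 fold change was 0.04 (95% interval -0.03 to 0.11, edgeR adjusted p = 0.533). The smallest p of the family belonged to Hspa14, a ribosome-associated HSP70 (chromosome 2, 3488854 to 3512814). It measured 175, 172 and 177 CPM in KBP(KK/RR) libraries, against 166, 165 and 161 CPM in wild-type KBP libraries. All KBP(KK/RR) values were higher, with a log2 fold change of 0.09 (SE 0.04, edgeR adjusted p = 0.196). Its partner at the ribosome, Dnajc2, had a log2 fold change of 0.08 (edgeR adjusted p = 0.445). The mitochondrial HSP70 gene Hspa9 measured 977, 937 and 979 CPM in KBP(KK/RR) libraries, against 942, 916 and 914 CPM in wild-type KBP libraries, with overlapping groups (log2 fold change 0.06, edgeR adjusted p = 0.379). Hspa1l, next to Hspa1a and best known from testis, measured 2.55, 2.37 and 2.25 CPM in KBP(KK/RR) libraries, against 2.83, 2.96 and 2.63 CPM in wild-type KBP libraries. All KBP(KK/RR) values were lower, with a log2 fold change of -0.24 (edgeR adjusted p = 0.394).

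The heat-inducible pair did not move past its spread. Hspa1b measured 4.07, 2.74 and 3.30 CPM in KBP(KK/RR) libraries, against 3.48, 2.90 and 3.54 CPM in wild-type KBP libraries. Hspa1a measured 1.08, 1.55 and 1.31 CPM in KBP(KK/RR) libraries, against 1.34, 1.15 and 0.876 CPM in wild-type KBP libraries. The groups overlapped in both genes, and the 95% interval of the log2 fold change ran from -0.25 to 0.35 for Hspa1b and from -0.26 to 0.66 for Hspa1a. Of the 20 chaperone genes with either form of the heat shock element in the start region (29.9%, where 17.0% of all genes had one), 17 were tested. Their median log2 fold change was 0.06, from -0.13 to 0.20, and that of the 43 tested genes whose window lacked both forms was 0.05, from -0.24 to 0.65.

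Of the HSP110 genes, the exchange factors of HSP70, 0 of 3 were called and all 3 had a positive log2 fold change. Hspa4 measured 1163, 1103 and 1151 CPM in KBP(KK/RR) libraries, against 1095, 1098 and 1067 CPM in wild-type KBP libraries (log2 fold change 0.07, edgeR adjusted p = 0.327). Its groups did not overlap, although the lowest KBP(KK/RR) value was close to the highest wild-type KBP value. Hspa4l averaged 9.23 ± 0.605 CPM in KBP(KK/RR) cells and 8.22 ± 0.188 CPM in wild-type KBP cells (SD, n = 3 each; 0.17, edgeR adjusted p = 0.296). The heat-inducible Hsph1, whose start region holds the 3-unit heat shock element, had a log2 fold change of 0.06 (edgeR adjusted p = 0.440).

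Of the HSP90 genes 0 of 3 were called. Hsp90ab1 (chromosome 17, 45567778 to 45573261), the constitutive cytosolic form, measured 5873, 5929 and 6066 CPM in KBP(KK/RR) libraries, against 5729, 5606 and 5896 CPM in wild-type KBP libraries. Hsp90aa1, the stress-inducible cytosolic form, measured 4307, 3903 and 4221 CPM in KBP(KK/RR) libraries, against 4134, 3924 and 3926 CPM in wild-type KBP libraries. Both had overlapping groups and a log2 fold change of 0.05 (edgeR adjusted p 0.417 and 0.484). The ratio of Hsp90ab1 to Hsp90aa1 per length was 1.87 in KBP(KK/RR) cells and 1.87 in wild-type KBP cells. Hsp90b1, the ER form, measured 887, 855 and 892 CPM in KBP(KK/RR) libraries, against 891, 874 and 911 CPM in wild-type KBP libraries (-0.02, edgeR adjusted p = 0.789).

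The genes of the mitochondrial chaperonin had like differences. Hspd1, the barrel (chromosome 1, 55077833 to 55088243), measured 1559, 1463 and 1576 CPM in KBP(KK/RR) libraries, against 1481, 1438 and 1413 CPM in wild-type KBP libraries. Hspe1, the lid (chromosome 1, 55088148 to 55091317), measured 383, 369 and 382 CPM in KBP(KK/RR) libraries, against 365, 373 and 325 CPM in wild-type KBP libraries. In both, 1 wild-type KBP library reached above the lowest KBP(KK/RR) library, and the log2 fold change was 0.09 (edgeR adjusted p 0.219 for Hspd1 and 0.281 for Hspe1). Their annotated spans share 96 bases, and no source used here gives the strand setting of the counting, so reads in that overlap cannot be assigned with certainty. After the correction for length and GC the median of the pair was 0.04, in place of 0.09. It was 0.05 when wild-type KBP replicate 3 was left out, with a log2 fold change of Hspe1 of 0.03.

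Of the small HSP genes 5 of 8 were tested and 0 were called. Hspb1, the most abundant, measured 355, 383 and 411 CPM in KBP(KK/RR) libraries, against 395, 371 and 373 CPM in wild-type KBP libraries. The KBP(KK/RR) libraries spanned the whole wild-type KBP range, and the log2 fold change was 0.01 (edgeR adjusted p = 0.913). The log2 fold change of Hspb1 was -0.04 without KBP(KK/RR) replicate 6 and -0.00013 without wild-type KBP replicate 3. Hspb8, which works with the exchange factor Bag3, averaged 16.5 ± 0.467 CPM in KBP(KK/RR) cells and 16.1 ± 0.723 CPM in wild-type KBP cells (SD, n = 3 each; log2 fold change 0.03). Hspb2, Hspb6 and Hspb11, the last of which is a subunit of the intraflagellar transport machinery, lay between 1.02 and 3.29 CPM in the 6 libraries with overlapping groups. Their log2 fold changes were -0.17, -0.13 and -0.09. That of Hspb6 was 0.0093 without wild-type KBP replicate 1.

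The DNAJ genes form the widest group, 4 of class A, 13 of class B and 28 of class C. Of these, 4, 11 and 26 were tested and 0 were called. In class A, which resembles the bacterial DnaJ most, Dnaja1 measured 393, 374 and 393 CPM in KBP(KK/RR) libraries, against 379.8, 352 and 359.6 CPM in wild-type KBP libraries. Dnaja2 measured 251, 237 and 254 CPM in KBP(KK/RR) libraries, against 243, 229 and 229 CPM in wild-type KBP libraries. Groups overlapped in both, with log2 fold changes of 0.09 and 0.08 (edgeR adjusted p 0.242 and 0.291). The mitochondrial Dnaja3 had one of 0.07, with all KBP(KK/RR) values higher (edgeR adjusted p = 0.376).

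In class B, Dnajb6, known to suppress protein aggregation, had the smallest p (chromosome 5, 29735898 to 29786478). It measured 235, 223 and 237 CPM in KBP(KK/RR) libraries, against 219, 214 and 206 CPM in wild-type KBP libraries. The groups did not overlap, and the gene had a log2 fold change of 0.12 (SE 0.04, edgeR adjusted p = 0.104). Dnajb11, a cofactor of the ER chaperone Hspa5, measured 98.0, 97.4 and 104 CPM in KBP(KK/RR) libraries, against 108, 106 and 108 CPM in wild-type KBP libraries. All KBP(KK/RR) values were lower, with a log2 fold change of -0.10 (SE 0.04, edgeR adjusted p = 0.200), and the gene was called lower after the correction for length and GC (-0.13, edgeR adjusted p = 0.0216, background 3.54% lower and 1.84% higher). Dnajb13, best known from sperm and cilia, had the largest difference of the 74 genes and a low level. It measured 1.04, 1.35 and 1.31 CPM in KBP(KK/RR) libraries, against 0.880, 0.592 and 0.917 CPM in wild-type KBP libraries (log2 fold change 0.65, SE 0.24, edgeR adjusted p = 0.143). Dnajb1, the heat-inducible partner of HSP70, had one of 0.07 with overlapping groups (edgeR adjusted p = 0.417).

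In class C, whose members share little beyond the J domain, Dnajc22 measured 5.78, 5.84 and 5.18 CPM in KBP(KK/RR) libraries, against 6.89, 6.57 and 6.34 CPM in wild-type KBP libraries. Dnajc16 measured 21.7, 22.5 and 21.9 CPM in KBP(KK/RR) libraries, against 22.9, 24.1 and 26.1 CPM in wild-type KBP libraries. All KBP(KK/RR) values were lower in both genes, with log2 fold changes of -0.24 and -0.14 (edgeR adjusted p 0.191 and 0.214). Dnajc15, a protein of the mitochondrial inner membrane, measured 19.6, 21.1 and 19.4 CPM in KBP(KK/RR) libraries, against 18.8, 17.7 and 17.7 CPM in wild-type KBP libraries. Its KBP(KK/RR) values were all higher (0.15, edgeR adjusted p = 0.226). The members of highest level per length were Dnajc8, found with the splicing machinery (115 CPM per kb in KBP(KK/RR) cells and 109 CPM per kb in wild-type KBP cells), and Dnajc7, which binds both HSP70 and HSP90 (113 CPM per kb in KBP(KK/RR) cells and 109.6 CPM per kb in wild-type KBP cells). Their log2 fold changes were 0.08 and 0.04 (edgeR adjusted p 0.283 and 0.632). Dnajc13, an endosomal protein named here after its values were seen, measured 225, 195 and 187 CPM in KBP(KK/RR) libraries, against 208, 238 and 234 CPM in wild-type KBP libraries. KBP(KK/RR) replicate 4 lay within the wild-type KBP range, and the gene, with a log2 fold change of -0.16 (edgeR adjusted p = 0.355), was called lower when that library was left out (-0.24, edgeR adjusted p = 0.00864, background 3.97% lower) and without a filter on low counts (-0.16, 0.00879, background 3.58% lower).

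Of the CCT genes 9 of 10 were tested and 0 were called. At an unadjusted p under 0.05, 8 of these 9 genes were higher and 0 lower, where the background was 8.32% and 10.3%. The 8 had means of at least 100 CPM. Of all 2437 genes at that level, 331 were higher and 324 lower at that p. All 8 genes of the ring, Tcp1, Cct2, Cct3, Cct4, Cct5, Cct6a, Cct7 and Cct8, had a positive log2 fold change between 0.08 and 0.12, with a median of 0.10. In 7 of the 8, the 3 KBP(KK/RR) libraries lay above the 3 wild-type KBP libraries. The background for that order was 11.8% of all genes, and 448 of the 2437 genes with at least 100 CPM had it. None of the 8 ring genes passed the threshold over all genes. The genes lie on 8 chromosomes.

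Cct3 (chromosome 3, 88297135 to 88321766) measured 714, 708 and 742 CPM in KBP(KK/RR) libraries, against 674, 659 and 658 CPM in wild-type KBP libraries. Cct2 (chromosome 10, 117050997 to 117063852) measured 617, 611 and 633 CPM in KBP(KK/RR) libraries, against 586, 572 and 558 CPM in wild-type KBP libraries. Both had a log2 fold change of 0.12 (SE 0.04, edgeR adjusted p 0.0728 for Cct3 and 0.0847 for Cct2), the smallest adjusted p of all chaperone genes. Cct4 measured 628, 614 and 659 CPM in KBP(KK/RR) libraries, against 595, 586 and 579.8 CPM in wild-type KBP libraries (0.11, edgeR adjusted p = 0.114). Cct8 measured 799.9, 759 and 811 CPM in KBP(KK/RR) libraries, against 748, 731 and 724 CPM in wild-type KBP libraries (0.10, edgeR adjusted p = 0.131). Cct5 measured 742, 739 and 793 CPM in KBP(KK/RR) libraries, against 721, 697 and 728 CPM in wild-type KBP libraries (0.08, edgeR adjusted p = 0.244). In each of these 5 genes every KBP(KK/RR) library was higher, and no log2 fold change passed 0.12. Tcp1 was the gene with overlapping groups, its KBP(KK/RR) replicate 5 at 442 CPM lying just under wild-type KBP replicate 1 at 442 CPM.

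**Figure D3:**
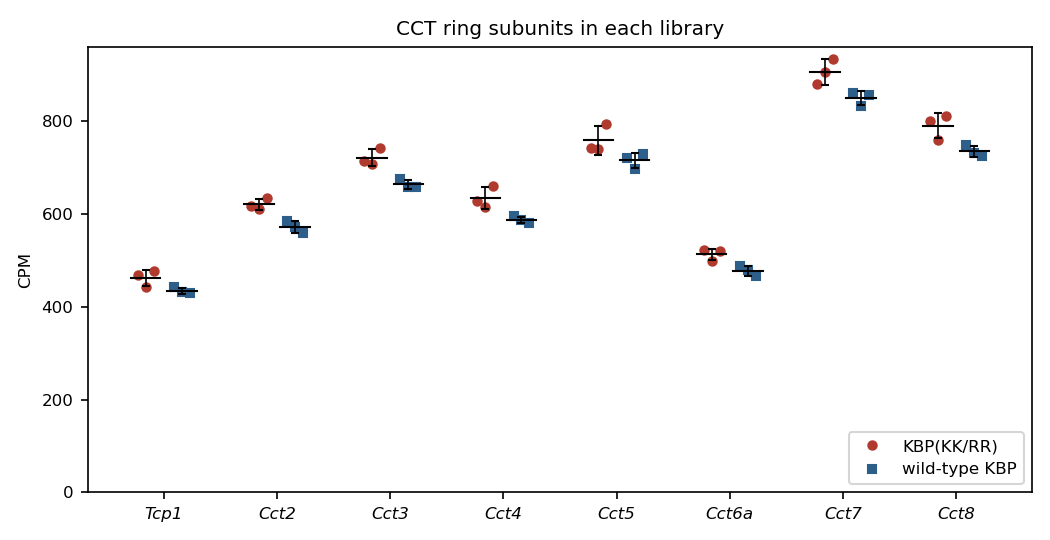
CPM of the 8 CCT ring subunits in each library, KBP(KK/RR) as circles left of wild-type KBP as squares, with mean and SD bars (n = 3 each). In 7 of 8 genes all circles lie above all squares, by a small margin, and in Tcp1 they overlap.

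With upper-quartile scaling Cct2 and Cct3 were called higher (edgeR adjusted p 0.0480 and 0.0426, background 1.64% higher), and without a filter on low counts Cct3 was (0.0486, background 1.49% higher). When KBP(KK/RR) replicate 6 was left out, the smallest edgeR adjusted p of the CCT genes was 0.322. After the correction for length and GC the median over the ring was 0.06, with all 8 still positive. It was 0.08 to 0.13 when single libraries were left out. Per length the ring genes ran from 135 CPM per kb for Tcp1 to 409 CPM per kb for Cct5 in KBP(KK/RR) cells, and from 127 to 386 CPM per kb for the same genes in wild-type KBP cells, although the ring holds the subunits in equal number. The testis forms were near the floor: Cct6b had 94 counts over the 6 libraries, and Cct8l1 had 9 counts over the KBP(KK/RR) libraries and 26 over the wild-type KBP libraries.

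The 8 genes that failed the filter on low counts were Cct8l1, Dnajb7, Dnajb8, Dnajc5b, Dnajc5g, Hspb3, Hspb7 and Hspb9. They had 3 to 47 counts over the 6 libraries and were not tested. Hspb3 had 1, 0 and 2 counts in KBP(KK/RR) libraries and 0 in each wild-type KBP library.

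Summed over their members, the families differed by small amounts too. The CCT genes summed to 5370.4, 5278 and 5568 CPM in KBP(KK/RR) libraries, against 5114 (replicate 1), 4988 and 5000.1 CPM in wild-type KBP libraries, a mean difference of 7.38%. The HSP110 genes summed to 1493, 1417 and 1480.0 CPM in KBP(KK/RR) libraries, against 1413, 1409 and 1371 CPM in wild-type KBP libraries (4.69%). In these 2 of 9 families the groups did not overlap, with an exact two-sided permutation p of 0.1, the smallest that 3 against 3 libraries allow, and 0.3 adjusted over the 9 families. The mean differences of the overlapping families were 6.24% for the mitochondrial chaperonin, 5.82% for DNAJA, 3.27% for HSP90, 2.72% for DNAJB, 2.53% for HSP70, 1.35% for DNAJC and 0.815% for the small HSPs (exact permutation p of 0.2 to 1, 0.3 to 1 adjusted). The small HSP sum was lower in KBP(KK/RR) cells without KBP(KK/RR) replicate 6 or wild-type KBP replicate 2 or 3, and the DNAJB sum was lower without Dnajb6.

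The chaperones' partners were read from 6 lists of 81 genes, 80 of them in the table and 79 tested, of which 1 rose and 0 fell (background 1.05% and 2.07%). The riser was Grpel1, the exchange factor of the mitochondrial HSP70, which measured 118, 119 and 119 CPM in KBP(KK/RR) libraries, against 106, 105 and 108 CPM in wild-type KBP libraries. All KBP(KK/RR) values were higher, with a log2 fold change of 0.15 (SE 0.04, edgeR adjusted p = 0.0404). Leaving out KBP(KK/RR) replicate 5 or 6, or any 1 wild-type KBP library, ended the call (edgeR adjusted p 0.0629 to 0.198). In the same list of 15 exchange factors and adaptors, the HSP70 adaptor St13 had a log2 fold change of 0.12 (edgeR adjusted p = 0.10).

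Of 12 prefoldin and phosducin-like genes, some of whose products bring actin and tubulin to CCT or regulate it, 0 were called. All 12 had a positive log2 fold change, with a median of 0.09. The prefoldin subunit Vbp1 averaged 114 ± 4.01 CPM in KBP(KK/RR) cells and 104 ± 5.28 CPM in wild-type KBP cells (SD, n = 3 each; log2 fold change 0.14, edgeR adjusted p = 0.0956), and Txndc9 had one of 0.11 (edgeR adjusted p = 0.208). After the correction for length and GC the median was 0.04, with 10 of 12 positive. It was 0.06 when wild-type KBP replicate 3 was left out, and 11 of 12 were positive when KBP(KK/RR) replicate 6 was. Of 25 HSP90 cochaperones 0 were called and 18 had a positive log2 fold change. After the correction for length and GC 3 were called higher, Fkbp4, Sugt1 and Tomm34 (edgeR adjusted p 0.0439, 0.0135 and 0.0469, background 1.84% higher). Ptges3, the cochaperone p23, measured 539, 491 and 553 CPM in KBP(KK/RR) libraries, against 497, 479 and 461 CPM in wild-type KBP libraries (0.14, edgeR adjusted p = 0.0827). Its groups overlapped, and it was called higher with upper-quartile scaling, without a filter on low counts and when KBP(KK/RR) replicate 5 was left out (edgeR adjusted p 0.0471, 0.0171 and 0.0315). The background at these settings was 1.64%, 1.49% and 0.584% higher. Nudcd2 had a log2 fold change of 0.13 (edgeR adjusted p = 0.0916). At an unadjusted p under 0.05, 9 of these 25 genes were higher and 0 lower, where the background was 8.32% and 10.3%.

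Of 12 ER folding partners 0 were called and 0 had a positive log2 fold change, with a median of -0.05. Under upper-quartile scaling, and when KBP(KK/RR) replicate 5 or wild-type KBP replicate 3 was left out, 1 of the 12 was positive. The median was -0.02 when wild-type KBP replicate 3 was left out and -0.08 when wild-type KBP replicate 1 was. Calr, the lectin chaperone calreticulin, measured 867, 869 and 866 CPM in KBP(KK/RR) libraries, against 924, 915 and 975 CPM in wild-type KBP libraries (-0.11, SE 0.04, edgeR adjusted p = 0.0965). Creld2, a gene induced by ER stress, averaged 89.9 ± 2.70 CPM in KBP(KK/RR) cells and 98.7 ± 4.27 CPM in wild-type KBP cells (SD, n = 3 each; -0.13, edgeR adjusted p = 0.113). All KBP(KK/RR) values were lower in both, and both were called lower after the correction for length and GC (edgeR adjusted p 0.00266 and 0.00598, background 3.54% lower). So was a further partner, the ER oxidase Ero1l (-0.16, edgeR adjusted p = 0.0105), which was also called lower when KBP(KK/RR) replicate 4 was left out (-0.17, 0.0308, background 3.97%) and had a log2 fold change of -0.13 with all libraries (edgeR adjusted p = 0.162). The main ER chaperone Hspa5 measured 739.6, 719 and 748 CPM in KBP(KK/RR) libraries, against 743, 753 and 782 CPM in wild-type KBP libraries. Its groups overlapped (-0.05, edgeR adjusted p = 0.534). Of the 3 chaperone genes with the ER stress response element, Hspa5, Hsp90b1 and Dnajc3, the log2 fold changes were -0.05, -0.02 and 0.00. Start regions were had for 10 of the ER folding partners. The element was found in 4 of these, Calr, Creld2, Canx and Pdia6, with log2 fold changes of -0.11, -0.13, -0.01 and -0.05.

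**Figure D4:**
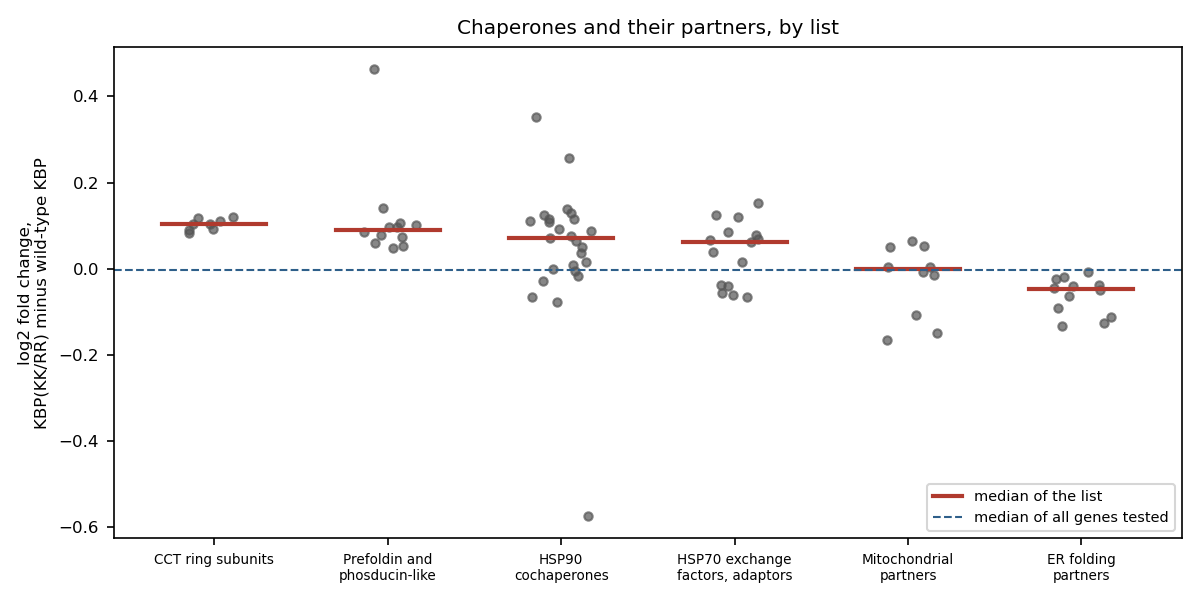
Log2 fold change (KBP(KK/RR) minus wild-type KBP, vertical axis) of each tested gene in 6 lists of chaperones and partners, with the median of each list (bar) and of all genes tested (dashed line). The CCT ring and prefoldin points all lie above zero (10 of 12 prefoldin genes after the correction for length and GC, 11 without KBP(KK/RR) replicate 6), with medians of 0.10 and 0.09, and the ER folding partners all lie below it (11 of 12 under upper-quartile scaling, or without KBP(KK/RR) replicate 5 or wild-type KBP replicate 3), with a median of -0.05.

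The heat shock factors gave no call, 0 of 5 tested. Hsf1, the main activator of the heat shock response, measured 62.0, 68.2 and 63.7 CPM in KBP(KK/RR) libraries, against 69.7, 66.9 and 70.2 CPM in wild-type KBP libraries (log2 fold change -0.09, edgeR adjusted p = 0.307). Hsf2 averaged 52.3 ± 2.02 CPM in KBP(KK/RR) cells and 48.8 ± 0.291 CPM in wild-type KBP cells (SD, n = 3 each; 0.10, edgeR adjusted p = 0.277). Groups overlapped for Hsf1 and did not for Hsf2. Of 10 mitochondrial proteases and folding partners 0 were called and 5 had a positive log2 fold change. Spg7, a subunit of an inner-membrane protease, measured 77.6, 81.5 and 80.2 CPM in KBP(KK/RR) libraries, against 85.8, 86.9 and 95.8 CPM in wild-type KBP libraries, all KBP(KK/RR) values being lower (-0.17, edgeR adjusted p = 0.0621). It was called lower without a filter on low counts and after the correction for length and GC (edgeR adjusted p 0.0158 and 0.0071, background 3.58% and 3.54% lower). The protease Htra2 had a log2 fold change of -0.15 (edgeR adjusted p = 0.220).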

How the data were processed

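Total RNA of the ES cells had its ribosomal RNA removed by RiboZero before library construction with ScriptSeq v2 (per the labels' protocols). bcl2fastq, TopHat, HTSeq and DESeq2 are named as tools, and mm10 and GRCm38 as builds, per the submitters' processing notes. Which annotation and strand setting the counting used, and any filter by the authors, is not given in the sources used here. Raw counts, as deposited, are whole reads per gene symbol. The normalized signal, as deposited, is by its values the count divided by 1 factor per library. Multiplied by that factor, 100% of its values above 0 were whole reads (tolerance 0.01), and 0 differed from the raw count.

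The test of the raw counts was that of edgeR 4.0.16 in R 4.3.3 (filterByExpr, TMM factors, robust quasi-likelihood fit, group as the term), fitted over all genes and adjusted by Benjamini-Hochberg, with calls at an adjusted p under 0.05. Positive log2 fold changes mean higher in KBP(KK/RR). CPM values use TMM-scaled totals, and the SE is the absolute log2 fold change over the square root of F. Alternatives were DESeq2 1.42.0, limma 3.58.1 (voom, and log2 of the normalized signal plus 1), other scalings and filters, a correction for a trend on transcript length and GC (spline), omission of each library, and, chosen after seeing the data, the recovered reads. Family sums were compared by exact permutation over libraries. Lengths are of the longest GENCODE M21 transcript, and start regions are from RefSeq. Library totals of 24131743 to 32160411 counts limit low-count genes most. Replicate libraries differed by more than counting noise (chi-square per degree of freedom 2.60 to 6.79).

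The chaperone genes and partner lists were chosen with earlier results of these data known. Genes were named by rule: per family up to 3 with the smallest p and up to 2 with the highest level per length, per partner list the 2 with the smallest p, and every called gene. Hspa1a, Hspa1b, Hspa5, Hspa12b, Dnajb1, Dnajc2, Dnajc3, Dnajc13, Tcp1, Ero1l, Pdgfra, Ncam1, Sox7, Map2, Pax6, Tubb3, Nes and Sox1 were named outside it, after their values were seen. So were Canx, Pdia6, Fkbp4, Sugt1, Tomm34, Nanog, Esrrb, Pou5f1, Sox2, Zfp42, Tdgf1, Gata4, Gata6, Dab2 and Sox17. The scripts were tested on simulated data, in which edgeR called 52.2% of the genes changed 1.2-fold and 95.5% of those changed 1.5-fold, with 15 false calls. Changes under 1.2-fold were not simulated.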

Additional observations from a re-analysis of the deposited data

How the results depend on the processing

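The chaperone genes called numbered 2 higher with upper-quartile scaling (Cct2 and Cct3), 1 higher (Cct3) and 1 lower (Dnajc13) without a filter on low counts, and 1 higher (Dnajc5) and 1 lower (Dnajb11) after the correction for length and GC. Partner genes called, with 79 tested in the main fit, numbered 2 higher with upper-quartile scaling, 3 higher and 1 lower without the filter, and 4 higher and 4 lower after that correction. The background was 1.64% higher and 1.43% lower with upper-quartile scaling, 1.49% and 3.58% without the filter, and 1.84% and 3.54% after the correction. Over all genes, 151 were called higher and 297 lower; DESeq2 gave 71 higher, upper-quartile scaling 235 higher and 205 lower, no filter 284 higher and 682 lower, and the correction 262 higher and 503 lower. Upper-quartile scaling moved the median log2 fold change of all genes to 0.02. When single libraries were left out, 0 chaperone genes were called higher and 0 to 1 lower, 0 to 1 partner genes higher and 0 to 1 lower, and 37 to 198 of all genes higher and 85 to 569 lower. The summed CPM of small HSP (log2 ratio) ran from -0.039 (without KBP(KK/RR) replicate 6) to 0.061 over these omissions, with -0.0048 without wild-type KBP replicate 2 and -0.00070 without replicate 3, and was -0.0048 without Hspb1. That of the DNAJB sum was -0.029 without Dnajb6. The log2 fold change of Hspb8 was -0.0026 after that correction, the log2 fold change of Hspb1 ran from -0.041 to 0.065 over the omissions, and that of Hspb6 from -0.20 to 0.0093. The median over the chaperone genes stayed positive under every alternative run, from 0.03 to 0.07. Omission of KBP(KK/RR) replicate 5 or wild-type KBP replicate 2 ended the call of the KBP gene by the log2 fold change of 2510003E04Rik (edgeR adjusted p 0.0735 and 0.0908). The cause of these changes was not tested. No paired analysis was possible because the groups share no replicate number.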
